A study of Mus musculus with 2 samples.

Results

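Messenger RNAs for 44 acid hydrolases and cathepsins of the lysosome, with the cofactors that serve them, were followed in mouse 3T3-L1 cells after siRNA against Phf21a. These genes were chosen by name, and each was read through the probe sets that the array's annotation assigns to it alone. They hold 95 of the 34945 probe sets with 1 gene and make up 44 of 18193 genes. The genes were proposed with results of this comparison already known, so their ratios are given as a description.

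3T3-L1 is a line of mouse embryonic fibroblast origin that differentiates into fat cells on hormonal induction. Preadipocytes in DMEM with 25 mM glucose and 10% FBS received either an siRNA specific for Phf21a or siGL3, a luciferase siRNA that served as control. Insulin, dexamethasone and 3-isobutyl-1-methylxanthine were added 24 h after transfection, and RNA was taken 24 h after that, so both groups were in early differentiation. Each group was 1 Affymetrix array, so there is no replicate error, no test was possible, and every number compares these 2 cultures only. Higher and lower mean higher or lower on the Phf21a siRNA array.

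Acid hydrolases are made in the endoplasmic reticulum, tagged with mannose 6-phosphate in the Golgi and carried to the lysosome by receptors for that tag. There glycosidases take sugars off glycoproteins, glycolipids and glycosaminoglycans, sulfatases remove sulfate groups, lipases and ceramidase cut lipids, and cathepsins cut proteins. The transcription factors TFEB, TFE3 and MITF drive many of their genes through an E-box motif. In fat cells lysosomes degrade part of the stored lipid, and several cysteine cathepsins have been studied as factors in adipogenesis.

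Phf21a itself (Entrez gene 192285) had a signal of 306 under its siRNA and 768 under control siRNA. The log2 ratio was -1.33 with a local spread of 0.51, the half-width of the central 68% of log2 ratios among the 1000 detected genes of most similar signal. This spread holds any real differences as well as noise and does not measure variation between cultures. It follows the ± sign below. The 2 arrays were scaled by the authors to the same trimmed mean of 500.003, with median signals of 52.98 and 49.51. Of the fibroblast and preadipocyte markers, 8 of 8 were detected, with a median log2 ratio of -0.18. Their ratios ran from -1.05 ± 0.32 for Dlk1, an inhibitor of differentiation (12290 under control siRNA and 5940 under Phf21a siRNA), and -0.58 ± 0.39 for Col1a1 to 0.84 ± 0.42 for Pdgfrb (2092 and 3743, with another probe set at 0.13), with Vim at 0.13, Col1a2 at 0.06, Pdgfra at -0.16, Col3a1 at -0.19 and Thy1 at -0.30. Of 7 adipocyte markers on the array 4 were detected. Fabp4 was at 0.74 ± 0.36 (3502 and 5849) and Pparg at 0.67 ± 0.53 (512 and 814), both past 1.5-fold upward, while Cebpb was at -0.0033 ± 0.33 and Lpl at -0.15 ± 0.39. The part of these marker differences in the hydrolase ratios was not tested. Adipoq (12.5 and 26.5), Cebpa (44.97 and 11.97) and Cidec (2.238 and 1.1998) were under the detection limit.

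Detection required a signal of 51.3, the pooled median, on at least 1 array. Of the 44 genes 41 passed, and all 41 had both signals at or above this limit, so none passed through 1 array alone. Of the 41, 33 also reached 461, the pooled 75th percentile of signals. The genes that did not pass were Ctsf, Ctss and Acp5.

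A difference of 1.5-fold or more upward was seen in 12 of the 41 (29.3%) and downward in 0. Across all 11301 detected genes the shares were 15.1% upward and 13.9% downward. Among the 33 brighter members 9 passed upward and 0 downward, against 12.9% and 10.1% of the 7134 brighter genes on the array. The median log2 ratio of the 41 was 0.36 against 0.03 for all detected genes, and 32 of the 41 (78.0%) lay above 0 against 52.2% of all detected genes. At 2-fold 7 of the 41 were higher and 0 lower, where all detected genes gave 5.66% and 5.44%.

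The array also carries poly-A control RNAs, which are spiked into the sample before labelling. Their median log2 ratio was 0.73 over 24 probe sets, from 0.44 to 0.95, and that of the later hybridisation controls was 0.23 over 18. Scaled to the poly-A controls, the median of all detected genes moved to -0.70 and that of the 41 genes to -0.36, with 4 past 1.5-fold upward and 11 downward, so a statement that these genes were higher means relative to the other genes on the array. It subtracts 0.73 from every log2 ratio, so each ratio given here between 0 and 0.73, of members and of other genes, changes sign with it. That scaling left 2.86% of all detected genes past 1.5-fold upward.

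The classes differed. Glycosidases held 8 of the 12 higher genes, cathepsins and other peptidases 3, lipid hydrolases with their activator proteins 1, and sulfatases with their activating enzyme 0. Outside the glycosidases 4 of 29 detected genes were at least 1.5-fold higher, or 13.8%, which is near the 15.1% of all detected genes. The median of those 29 was 0.30, and 22 lay above 0. Class medians were 0.96 for 12 glycosidases, 0.38 for 8 lipid hydrolases and activators, 0.37 for 12 peptidases, 0.21 for 6 sulfatase genes and 0.01 for 3 other enzymes. The glycosidase median exceeded that of the other detected members by 0.66, a difference that a common scaling factor cannot move. Median centring and both control scalings therefore leave it at 0.66 by construction. Over all 11 other ways of processing the signals it ranged from 0.58 to 0.68. Both values of 0.58 came from settings that kept only 10 and 8 of the 12 glycosidases. This difference was examined after the values had been seen.

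**Figure D1:**
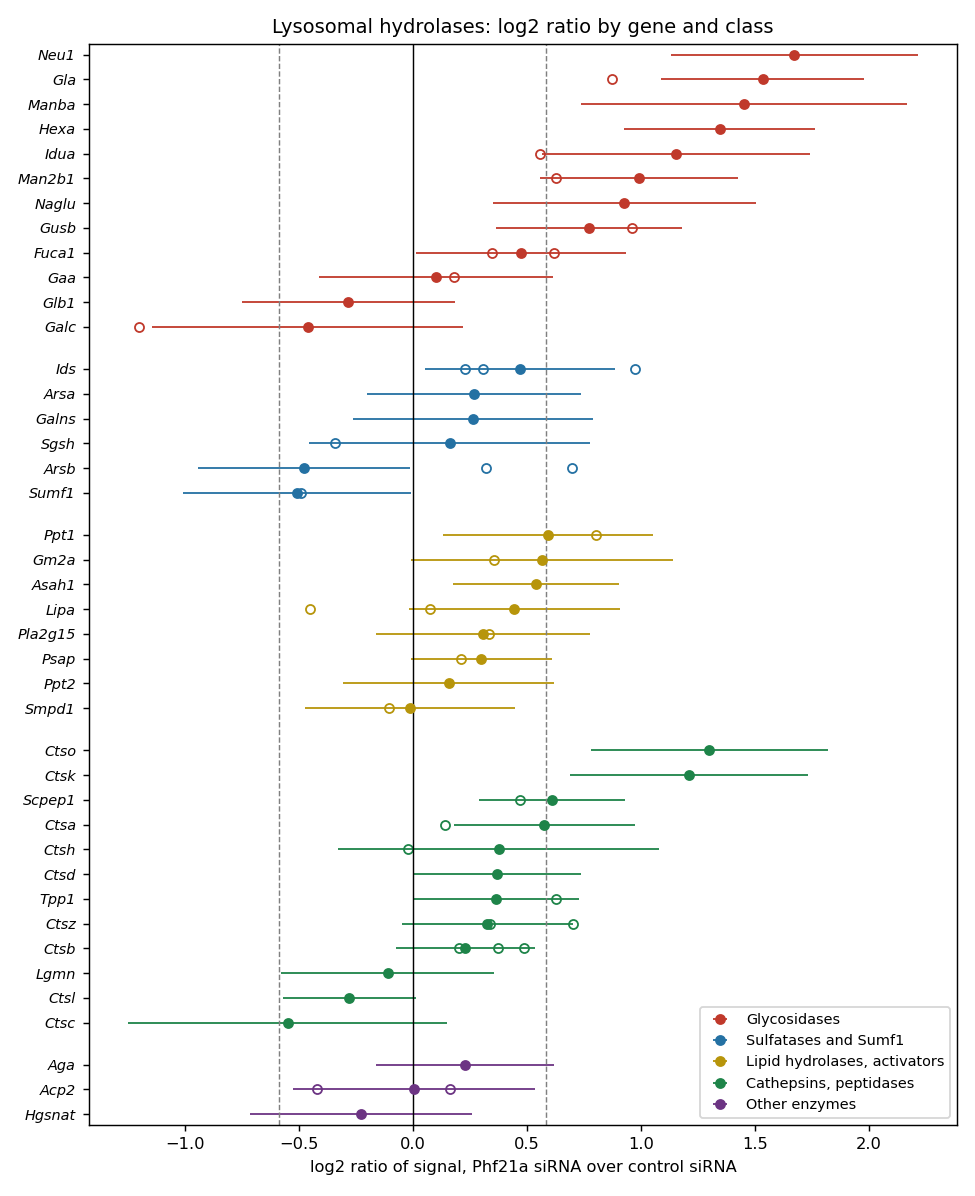
Log2 ratio of MAS5 signal (Phf21a siRNA over control siRNA) for the 41 detected genes, ordered within 5 classes. Filled points are the probe set that represents the gene with its local spread as a bar, open points are its other detected probe sets with both signals above the floor, and dashed lines mark 1.5-fold; the glycosidases run from -0.46 for Galc to 1.67 for Neu1, while no sulfatase gene's filled point passes a dashed line.

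Neu1, the lysosomal sialidase that removes terminal sialic acid, stood highest of the 41 genes (Entrez gene 18010). Its signal was 243 under control siRNA and 776 under Phf21a siRNA, 3.19-fold higher (log2 ratio 1.67 ± 0.54). A dimmer probe set of the gene went the same way with signals of 2.10 and 69.2, the former too low for a fold. The remaining probe set lay under the detection limit at 34.7 and 13.9.

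Gla (Entrez gene 11605) encodes alpha-galactosidase A, which clears globotriaosylceramide and is deficient in Fabry disease. It had 1251 and 3624, 2.90-fold higher (1.53 ± 0.44), and a second probe set with 267 and 490 gave 0.88. Manba, the beta-mannosidase that takes the last mannose off N-glycan remnants, was dim at 56.0 and 153 (1.45 ± 0.72). Its control signal lies just above the detection limit, so the ratio is imprecise.

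Hexa (Entrez gene 15211) encodes the alpha subunit of beta-hexosaminidase, which degrades GM2 ganglioside and is defective in Tay-Sachs disease. It had 1763 and 4480 on its only detected probe set, 2.54-fold higher (1.35 ± 0.42). Neu1, Gla, Manba and Hexa remained at least 1.5-fold higher under each alternative that gave them a value, poly-A scaling included.

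Idua, the alpha-L-iduronidase of heparan and dermatan sulfate breakdown, had 150 and 334, 2.23-fold higher (1.16 ± 0.59), with a second probe set at 0.56. Man2b1, the major alpha-mannosidase of the lysosome, had 1599 and 3183 (0.99 ± 0.43), and its second probe set gave 0.63. Naglu, which removes N-acetylglucosamine from heparan sulfate, had 180 and 342 (0.93 ± 0.58). Each of these is an exoglycosidase, an enzyme that works from the free end of a sugar chain. Gusb, the beta-glucuronidase, had 2285 and 3905 (0.77 ± 0.41), and its second probe set gave 0.96.

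The other 4 glycosidases did not reach 1.5-fold in either direction. Fuca1, the alpha-fucosidase, had 1125 and 1562 (0.47 ± 0.46), and its 3 detected probe sets ran from 0.35 to 0.62. Gaa, the acid alpha-glucosidase that degrades lysosomal glycogen, had 598 and 642 (0.10 ± 0.51). Those below 0 were Glb1 and Galc, which both release beta-linked galactose. Glb1, the acid beta-galactosidase also read as a senescence stain, had 1075 and 884 (-0.28 ± 0.47). Galc, the galactosylceramidase missing in Krabbe disease, had 157 and 114 (-0.46 ± 0.68), and a dim second probe set with 58.9 and 25.6 gave -1.20.

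**Figure D2:**
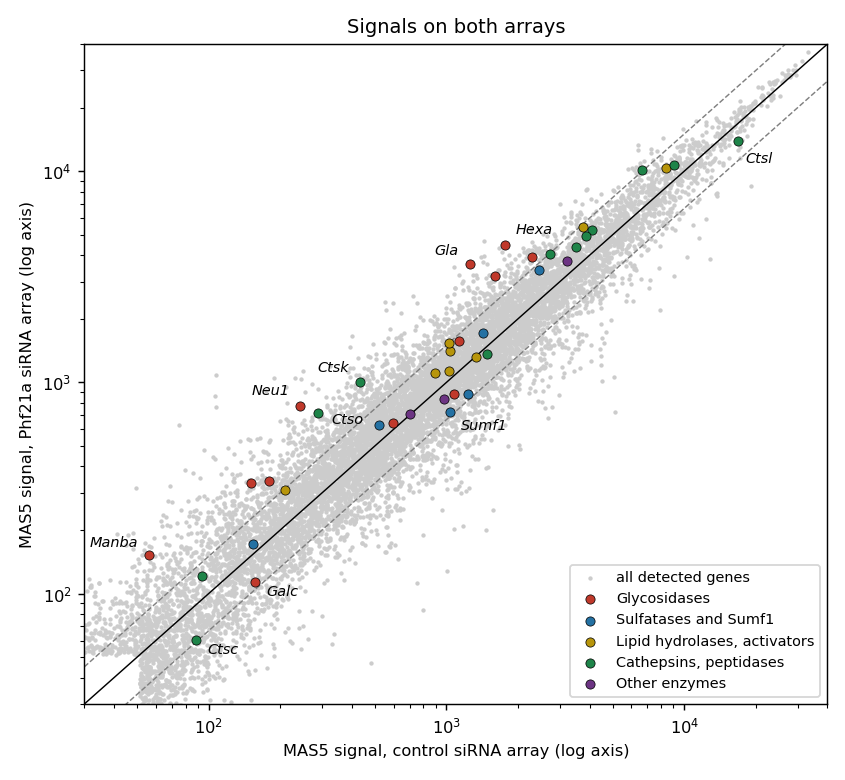
MAS5 signal of each detected gene on the control siRNA array (horizontal) and the Phf21a siRNA array (vertical), both on log axes that start at 30, with all detected genes in grey and the 41 hydrolase and cathepsin genes coloured by class. The solid line marks equal signal and dashed lines 1.5-fold; Neu1, Gla, Hexa and Manba lie above the upper dashed line, and Ctsl, at 16785 and 13834, lies just under the solid line.

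Sulfatases take sulfate off glycosaminoglycans and sulfatide and work only after Sumf1, the formylglycine-generating enzyme, has modified their active-site cysteine. Of these 6 genes 0 reached 1.5-fold in either direction on the probe set that represents the gene. All detected genes gave 15.1% upward and 13.9% downward, so with 6 genes this count does not set the class apart. Ids, the iduronate sulfatase that acts before Idua, had 2454 and 3398 (0.47 ± 0.42), and its 4 detected probe sets ran from 0.23 to 0.98. Arsa, which desulfates sulfatide, was at 0.27 ± 0.47 (1429 and 1721), and Galns, the galactosamine-6-sulfatase, at 0.26 ± 0.53 (521 and 626). The sulfatase median was below 0, at -0.02, with hybridisation control scaling and at -0.51 with poly-A scaling.

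Sgsh, the heparan N-sulfatase, was at 0.16 ± 0.62 (153 and 171), with a second probe set at -0.34. Arsb, which desulfates dermatan and chondroitin sulfate, was at -0.48 ± 0.47 (1234 and 886), but its dimmer probe sets gave 0.70 and 0.32, so its direction is not settled. Sumf1 had 1033 and 727 (-0.51 ± 0.50), and its second probe set gave -0.49. Both probe sets of the activating enzyme were therefore below 0.

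Among lipid hydrolases the ratios were small and mostly above 0, in 7 of 8 genes. Ppt1, the palmitoyl-protein thioesterase that strips palmitate from proteins, was the only one past 1.5-fold, with 1021 and 1538 (0.59 ± 0.46) and a second probe set at 0.80. Asah1, the acid ceramidase, had 3760 and 5469 (0.54 ± 0.36). Lipa, the acid lipase that frees fatty acids and cholesterol from lipoprotein and droplet lipid, had 1030 and 1403 (0.45 ± 0.46). Its other probe sets, at -0.45 and 0.07, do not settle a direction. Pla2g15, a lysosomal phospholipase, was at 0.31 ± 0.47, Ppt2, a second thioesterase, at 0.16 ± 0.46, and Smpd1, the acid sphingomyelinase, at -0.01 ± 0.46 (1334 and 1322).

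The activators carry no catalytic activity but lift lipids to the enzymes. Gm2a, which presents GM2 to the hexosaminidase, had 209 and 310 (0.57 ± 0.58), and Psap, the precursor of the saposins, had 8385 and 10324 (0.30 ± 0.31). Both lay within their local spread and had a second probe set on the same side, at 0.36 and 0.21. The lipid class median was below 0, at -0.35, with poly-A scaling.

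Of 14 cathepsins and peptidases 12 were detected. The cysteine cathepsins Ctso and Ctsk stood apart from the others. Ctso, a papain-like protease, had 290 and 714, 2.46-fold higher (Entrez gene 229445, 1.30 ± 0.52). Ctsk, the collagen-cleaving cathepsin K of osteoclasts that fat cells also make, had 431 and 1000, 2.32-fold higher (Entrez gene 13038, 1.21 ± 0.52). Each rests on 1 detected probe set.

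The other cysteine cathepsins did not reach 1.5-fold. Ctsh was at 0.38 ± 0.70 (93.7 and 122) with a second probe set at -0.02, and Ctsz was at 0.33 ± 0.37 (3503 and 4394) with others up to 0.70. Ctsb, a bright and widely expressed member, had 9071 and 10645 (0.23 ± 0.31), and its 4 detected probe sets stayed between 0.20 and 0.49. Ctsl, whose local spread was the narrowest of the 41 genes, had 16785 and 13834 (-0.28 ± 0.29). Ctsc, the dipeptidyl peptidase that activates granule proteases of leukocytes, was dim at 88.6 and 60.6 (-0.55 ± 0.70).

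Peptidases of other types lay closer together. Scpep1, a serine carboxypeptidase, had 6644 and 10155 (0.61 ± 0.32) and a second probe set at 0.47. Ctsa, the carboxypeptidase that also shields Neu1 and Glb1, had 2720 and 4056 (0.58 ± 0.40), with a dim second probe set at 0.14. Ctsd, the aspartic protease, had 4075 and 5269 (0.37 ± 0.37), and Tpp1, a tripeptidyl peptidase, had 3850 and 4955 (0.36 ± 0.36). Lgmn, the asparaginyl endopeptidase that processes cathepsins to their mature forms, was at -0.11 ± 0.47 (1475 and 1368). The class median of 0.37 changed sign, to -0.36, with poly-A scaling.

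The other enzymes were near 0. Aga, which frees asparagine from its glycan, was at 0.23 ± 0.39 (3216 and 3769), Acp2, an acid phosphatase, at 0.01 ± 0.53 (704 and 707), and Hgsnat, the acetyltransferase of heparan sulfate breakdown, at -0.23 ± 0.49 (972 and 831). Their median of 0.01 was below 0 with median centring, loess and both control scalings.

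The undetected genes were Ctss, Acp5 and Ctsf. Ctss, the cathepsin of antigen-presenting cells, had signals of 13.1 under control siRNA and 3.997 under Phf21a siRNA. Acp5, the tartrate-resistant phosphatase of osteoclasts, had 37.4 and 6.78, and Ctsf had 20.2 and 30.2 on its brighter probe set. Ctsk, known from osteoclasts like Acp5, was detected and 2.32-fold higher. Since several hydrolases are abundant in macrophages, markers of such cells were read too. Of 16 leukocyte markers 7 were detected, 4 of them past 1.5-fold upward and 1 downward, and the list had a summed signal of 1109 under control siRNA and 1722 under Phf21a siRNA. Those past 1.5-fold upward were Csf1r (200 and 452, with other probe sets at log2 ratios of 0.18 and 0.22), Cd68 (64.0 and 119), Cd14 (479 and 804) and Fcer1g (25.7 and 54.4, the former under the detection limit). Cd14 and Csf1r made up most of both leukocyte sums and most of the rise between them. Laptm5 was lower (66.4 and 22.3, the latter under the limit), and Lyz2 (53.6 and 71.9) and Cd53 (98.2 and 71.7) lay between. The other 9 were under the detection limit on both arrays, among them Ptprc (at most 12.2 on either array), Tyrobp (4.66 and 6.32), Cd52 (1.61 and 3.87) and Itgam (15.8 and 15.3). Of 8 osteoclast markers 4 were detected, 0 of them past 1.5-fold upward and 2 downward, with summed signals of 1114 and 1065. The 2 were Mmp9 (55.6 and 2.90) and Tnfrsf11a (59.1 and 26.1), both dim and under the detection limit on the Phf21a siRNA array. Nfatc1 (873 and 907) made up most of both sums. All detected genes gave 15.1% upward and 13.9% downward, and these marker lists are short. The part of such cells in the hydrolase ratios was not tested.

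Members that work together did not share 1 ratio. Glb1, Neu1 and Ctsa, whose proteins form a complex in the lysosome, were at -0.28, 1.67 and 0.58. Of 6 genes for consecutive steps of heparan sulfate breakdown the 3 glycosidases Idua, Naglu and Gusb were at least 1.5-fold higher, while Ids, Sgsh and Hgsnat, which handle the sulfate groups and the acetyl transfer, ran from -0.23 to 0.47. Of 5 genes taken as trimming N-glycan remnants, Neu1, Manba and Man2b1 were past 1.5-fold and Fuca1 and Aga were not, although 5 of 5 lay above 0. Glb1 (-0.28) and Hexa (1.35), which can also act on such glycans, were left out of this set. The 5 of 5 therefore depends on how the set was drawn. Of 9 genes of sphingolipid breakdown Gla and Hexa were past 1.5-fold, and 3 lay below 0, namely Galc, Glb1 and Smpd1. In the order given, the 3 sets had 50%, 60% and 22.2% past 1.5-fold upward, against 15.1% of all detected genes. Above 0 lay 83.3%, 100% and 66.7%, against 52.2%. The sphingolipid shares are not far from those of the array, and all 3 sets are small. These sets were put together after the values had been seen.

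Agreement between probe sets of the same gene gives a check on the reading, not on the cultures. Of the 41 genes 25 had several detected probe sets, and in 21 of these (84%) the next brightest lay on the same side of 0, against 72.2% of 5597 genes on the whole array. Disagreement between the 2 probe sets was 0.34 on the log2 scale (the SD of their difference over the square root of 2), against 0.40 for all such genes. Of the 12 genes past 1.5-fold 7 had a second detected probe set, which was above 0 in 7 and past 1.5-fold itself in 5. Neu1 is among these 5 through a control signal raised to the floor. Of 715 such genes on the whole array, the second probe set was above 0 in 612 and past 1.5-fold in 371. With 7 genes, the members cannot be told apart from the array in this respect. Hexa, Manba, Naglu, Ctsk and Ctso had 1 detected probe set each. Over the 75 detected probe sets of the members 22 (29.3%) passed 1.5-fold upward and 1, of Galc, downward, where all detected probe sets with 1 gene gave 14.2% and 16.1%. The Galc probe set (58.9 and 25.6) and the dimmer Neu1 probe set among the 22 (2.10 and 69.2) reached the detection limit only on the array where they were high. These 2 calls are therefore weak.

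**Figure D3:**
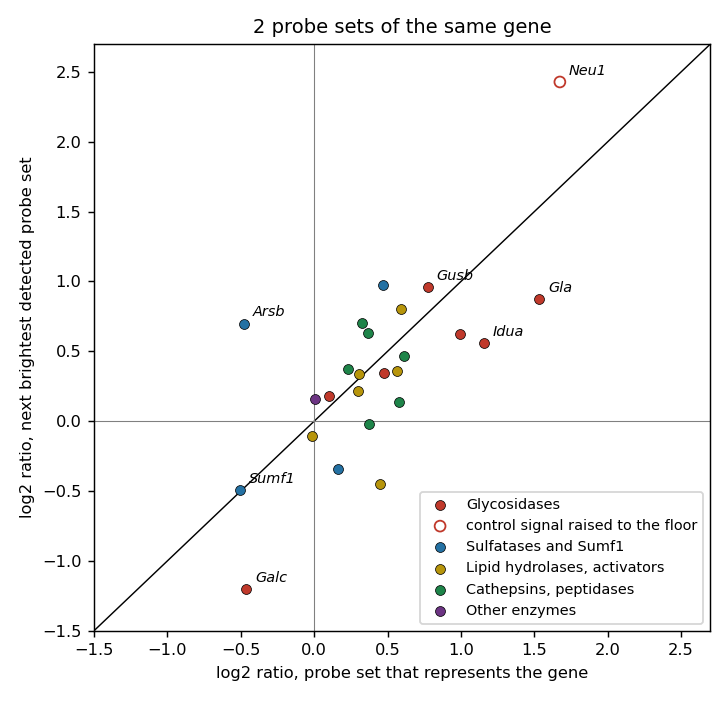
Log2 ratio (Phf21a siRNA over control siRNA) of the probe set that represents a gene (horizontal) and of its next brightest detected probe set (vertical) for the 25 members with several, coloured by class, with a line of equality. Most points lie above 0 on both axes and near the line; Arsb lies at -0.48 and 0.70, and the open point is Neu1, whose control signal of 2.10 on the second probe set was raised to the floor of 12.9.

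Genes around the hydrolases were read from further lists. For comparison, 15.1% of all detected genes were at least 1.5-fold higher, 13.9% were lower and 52.2% lay above 0. Further lysosomal hydrolases and luminal proteins had 16 detected genes, of which 5 passed 1.5-fold upward and 3 downward, and a median of 0.38. Those furthest from 0 were Ifi30, a lysosomal thiol reductase (1077 and 3506, 1.70 ± 0.45), the sulfatase Arsk (125 and 55.9, -1.16 ± 0.72), the nuclease Pld3 (478 and 965, 1.01 ± 0.53) and the peptidase Dpp7 (920 and 1823, 0.99 ± 0.46). The proton pump and lysosomal membrane proteins, which acidify and bound the organelle, had 12 of 32 higher and 2 lower (median 0.44). Their share of 37.5% higher exceeded the 29.3% of the members. Their extremes were Ctns, the cystine exporter (132 and 365, 1.47 ± 0.59), Ostm1, a subunit of the chloride transporter (644 and 1597, 1.31 ± 0.47), Mfsd8, whose lower signal was under the detection limit (100.1 and 41.1), and the pump subunit Atp6v0d1 (2998 and 7002, 1.22 ± 0.37). The 2 lower genes were Mfsd8 and Cln3 (68.9 and 43.1, -0.68 ± 0.80). Both reached the detection limit only on the control siRNA array, so these 2 calls are weak.

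Genes that deliver enzymes to the lysosome had 1 of 17 higher and 2 lower (median 0.13), against 15.1% and 13.9% of all detected genes. Gnptab, the phosphotransferase that makes the mannose 6-phosphate tag, was at 0.59 ± 0.47 (1224 and 1840), just past 1.5-fold. Its next brightest probe set was flat at -0.01 (970 and 961), and a dimmer one gave 0.59. Nagpa, which uncovers the tag, was at -0.71 ± 0.57 (338 and 207). The adaptor Gga1 was at -0.70 ± 0.57 (360 and 222) and the receptor Sort1 at -0.57 ± 0.72 (101 and 68.1). Inhibitors of cysteine cathepsins were above 0 in 4 of 4 detected genes, against 52.2% of all detected genes. Ctla2a (2209 and 4245, 0.94 ± 0.41) and Ctla2b (697 and 1133, 0.70 ± 0.49), a pair of closely similar genes whose probes may not tell them apart, passed 1.5-fold. Cstb (12392 and 16526, 0.42 ± 0.29) and Cst3 (8718 and 10679, 0.29 ± 0.31), which encode stefin B and cystatin C, did not. A second Cstb probe set (5751 and 9356) gave 0.70, which is past 1.5-fold.

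**Figure D4:**
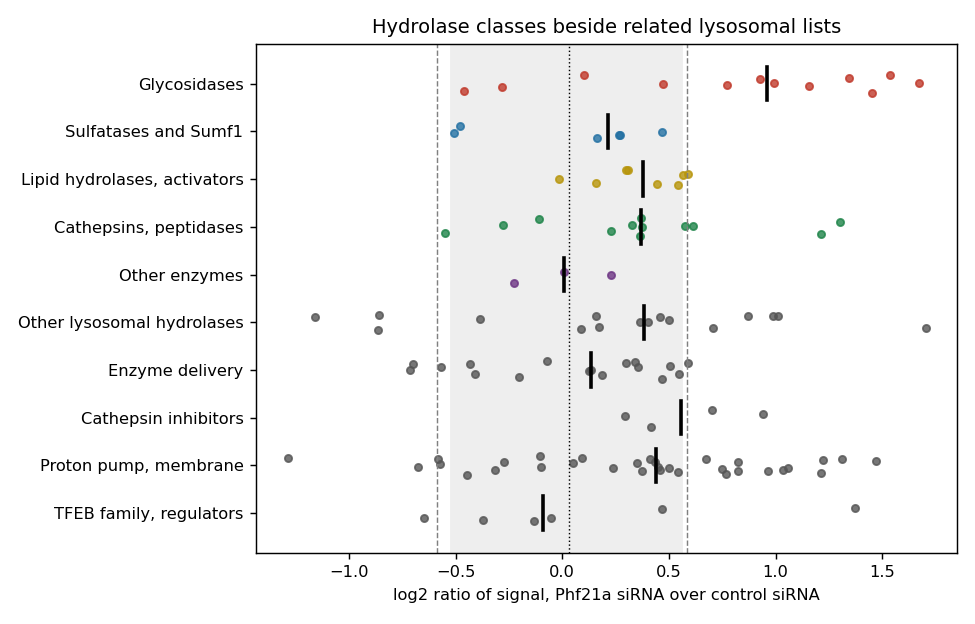
Log2 ratio (Phf21a siRNA over control siRNA) of each detected gene in the 5 hydrolase classes (coloured) and 5 related lists (grey), with points spread vertically for legibility and a bar at each median. The grey band spans the 16th to 84th percentile of all detected genes, -0.52 to 0.56, the dotted line is their median of 0.03 and dashed lines mark 1.5-fold; the glycosidase median of 0.96 lies outside the band.

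Transcripts of the TFEB family were near or below 0. Tfeb was dim at 94.2 and 91.0 (-0.05 ± 0.72), Tfe3 had 1373 and 1254 (-0.13 ± 0.46), and Mitf had 462 and 295 (-0.65 ± 0.52), while Tfec was under the detection limit. With quantile normalization and loess Tfeb lay slightly above 0, at 0.01 and 0.04. Flcn, which with Fnip1 restrains TFEB and TFE3 by promoting their phosphorylation, had 633 and 1637 (1.37 ± 0.47). Fnip1 was at 0.47 ± 0.46 (1588 and 2192), with dimmer probe sets at 0.91 and 1.52. Zkscan3, a repressor of lysosomal genes, was at -0.37 ± 0.54 (501 and 387). These are transcript levels and do not show where the proteins were in the cell.

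The E-box bound by this family, CACGTG, reads the same on both strands and was searched in RefSeq promoter windows (GRCm38.p6, 250 bases before to 50 after the start), which were matched for 38 of the 44 genes. It was found in 12 of the 38 (31.6%) and in 8.09% of the 27025 genes with a window. Of 12 members at least 1.5-fold higher it was in 2, Gla and Naglu, and of 23 other detected members in 9. The longer form TCACGTGA, which contains the same core, was in 4 of the 38 (10.5%), namely Ctsa, Ctsd, Gla and Sumf1, against 1.12% of all genes. GTCACGTG, read on both strands and overlapping both of these, was in 9 of the 38 (23.7%) against 2.55%. The median log2 ratio was 0.16 for 11 detected members with CACGTG and 0.47 for 24 without.

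To show the motif in members on either side of 1.5-fold, a stretch of 60 bases that holds it is given for 6 of them. Each stretch lies before the start, though not always next to it. The bases read 5′ to 3′ along the gene's strand, with CACGTG in capitals. Gla (chrX:134601167-134601226, minus strand) and Naglu (chr11:101069994-101070053, plus strand) were past 1.5-fold, at 1.53 and 0.93. Glb1 (chr9:114401003-114401062, plus strand), Ctsd (chr7:142387893-142387952, minus strand), Arsa (chr15:89477425-89477484, minus strand) and Sumf1 (chr6:108185584-108185643, minus strand) were not, at -0.28, 0.37, 0.27 and -0.51. The motif begins 194 bases before the start in Gla, 73 in Naglu, 48 in Glb1, 98 in Ctsd, 16 in Arsa and 11 in Sumf1. Gla and Ctsd hold the motif a second time, 227 and 245 bases before the start, and the copy nearer the start is the one in capitals.
Gla: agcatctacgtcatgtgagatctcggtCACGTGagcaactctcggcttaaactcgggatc
Naglu: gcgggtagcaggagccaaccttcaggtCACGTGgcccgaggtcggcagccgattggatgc
Glb1: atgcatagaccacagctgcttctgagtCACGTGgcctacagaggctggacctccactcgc
Ctsd: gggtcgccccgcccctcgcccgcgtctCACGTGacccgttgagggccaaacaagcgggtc
Arsa: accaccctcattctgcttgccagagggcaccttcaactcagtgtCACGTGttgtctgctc
Sumf1: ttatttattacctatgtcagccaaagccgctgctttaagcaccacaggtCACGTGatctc
A match in these windows is a description of the letters and not of a bound site.

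**Figure D5:**
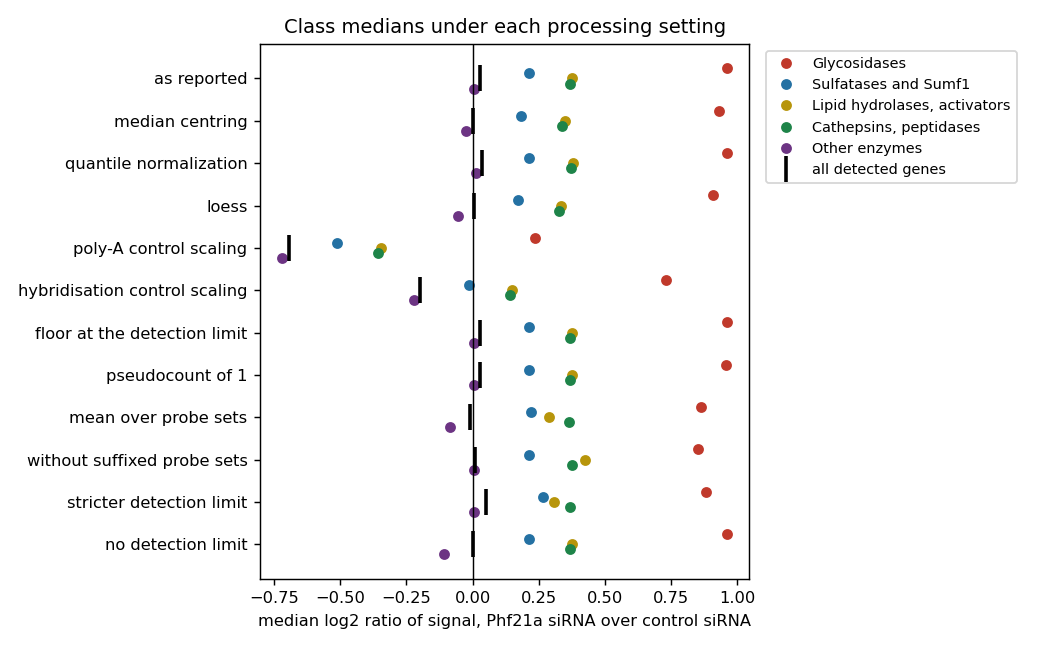
Median log2 ratio (Phf21a siRNA over control siRNA) of each hydrolase class and of all detected genes (black bars) under the reported processing and 11 alternatives. The glycosidase median is the rightmost point in every setting, between 0.24 and 0.96, and control scaling shifts classes and all genes together.

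The genes nearest the 1.5-fold limit show how far the counts depend on it. Just inside were Ppt1 at 1.51-fold, Scpep1 at 1.53-fold and Gusb at 1.71-fold, and just outside were Ctsa at 1.49-fold, Gm2a at 1.48-fold and Asah1 at 1.45-fold. All 12 genes past the limit exceeded their local spread, but this is no separate check for most of them. Only Idua (0.59) and Manba (0.72) had a local spread wider than the 1.5-fold limit. For the others, passing the limit already meant exceeding the spread.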

How the data were processed

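Total RNA (1 ug) from 1 culture per group was labelled and hybridised to an Affymetrix mouse array. The deposited values are linear signal intensity made by the authors with MAS5, as named in the submitters' processing notes without a version. MAS5 subtracts mismatch signal, which leaves dim probe sets noisy, and scales arrays to an equal trimmed mean.

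Control probe sets were set aside. Before log2, signals under 12.9, the pooled 25th percentile, were set to that floor. A gene was represented by its detected probe set with the highest mean log2 signal, with those ending in _x_at used only where no other existed. Of 34945 probe sets with 1 gene, 34741 matched a RefSeq gene table by Entrez number, and 0 symbols changed. No test was run, since each group has n = 1, and the number of arrays limits the precision.

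The members and gene lists were chosen with earlier results of these data known. Named genes are all 44 members, Phf21a, detected TFEB family genes, and up to 4 genes furthest from 0 of each related list; leukocyte, osteoclast, preadipocyte and adipocyte markers were read as cell type checks. Of the list genes, those without a probe set of 1 gene in the annotation were not used here. No protein sequences were used here. Ratios and the local spread were tested on simulated data. Alternatives were 5 scalings, a higher floor, a pseudocount of 1, averaged probe sets, no suffixed probe sets, a stricter and no detection limit, and 2-fold; the requirement that all detected probe sets pass was added after the data were seen. Software was Python 3.11.15, pandas 2.3.3, numpy 2.4.6, statsmodels 0.14.6, scipy 1.17.1, matplotlib 3.10.9.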

Additional observations from a re-analysis of the deposited data

How the results depend on the processing

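With 1 array per group no alternative touches the missing variation between cultures. The count of members at least 1.5-fold higher, 12 as reported, was 9 to 12 under the alternatives other than poly-A scaling (4) and the 2-fold limit (7), and 10 when all detected probe sets of a gene had to pass. The count of members at least 1.5-fold lower, 0 as reported, was 11 with poly-A scaling, 4 with hybridisation control scaling, 1 with averaged probe sets and 1 with no detection limit, which also counts undetected genes. With poly-A scaling the medians were -0.36 for all members, 0.24 for glycosidases, -0.51 for sulfatases, -0.35 for lipid hydrolases, -0.36 for peptidases and -0.72 for other enzymes. With hybridisation control scaling they were 0.14, 0.73, -0.015, 0.15, 0.14 and -0.22 in the same order. Poly-A scaling changed the sign of every member ratio between 0 and 0.73. Of the 12 genes past 1.5-fold, these were Ppt1 (-0.13) and Scpep1 (-0.11). The median of the other enzymes was also below 0 with median centring (-0.023), loess (-0.056), averaged probe sets (-0.085) and no detection limit (-0.11). The excess of the glycosidase median over the other members, 0.66, was 0.58 both without suffixed probe sets (10 glycosidases) and with the stricter detection limit (8 glycosidases). A median counted as moved when it shifted by more than the typical local spread divided by the square root of the number of genes. Dim members such as Manba, Ctsc, Ctsh and Galc have local spreads from 0.68 to 0.72, which limits what their ratios can show. No paired analysis was possible because each group has 1 array.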
